A study of Homo sapiens with 16 samples.

Results

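The augmin complex is built from the proteins of the HAUS genes, and its messenger RNAs were followed in 4 human T-cell acute lymphoblastic leukaemia lines after inhibition of CDK4 and CDK6. The members were the 8 named subunit genes, HAUS1 to HAUS8, and a probe set was taken where the platform annotation gave it exactly 1 gene symbol equal to one of these. This found 14 probe sets for 7 genes, out of 41097 probe sets for 19775 genes. HAUS4 had no such probe set, since its 1 probe set on the array also carries a second gene symbol, and 2 further probe sets of HAUS7 were set aside for the same reason. The complex was chosen from its log2 levels in the 8 groups and its changes with PD-0332991 on these same arrays. Its levels in DMSO, its levels with PD-0332991 and its changes are therefore given as a description and support nothing. No p-value of a member is printed. Calls of members at an adjusted p under 0.05, and how often they held under other settings, are part of that description.

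CEM, CUTL1, DND41 and Jurkat cells, all established lines, were each given 1 uM PD-0332991 or the solvent DMSO for 15 h, with 2 arrays for each line and treatment and 16 in all. PD-0332991, or palbociclib, inhibits CDK4 and CDK6. Total RNA was read on Affymetrix Human Genome U133 Plus 2.0 arrays after amplification. Each treatment was given at 1 dose and 1 time, and each line is a single model of the disease.

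Augmin binds the side of an existing spindle microtubule and brings the gamma-tubulin ring complex to it, so that a new microtubule branches off. It is known for building the bulk of the spindle, for stable kinetochore fibres and for keeping centrosomes intact in mitosis. In the human complex HAUS6, HAUS8, HAUS2 and HAUS7 form the part that meets the microtubule, and HAUS1, HAUS3, HAUS4 and HAUS5 form the other part. HAUS8 carries a microtubule-binding stretch, and HAUS6 reaches the gamma-tubulin ring complex through its adaptor NEDD1.

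Replicate arrays correlated at r of 0.994 to 0.998 over the 13483 genes tested, and array medians lay between 28.5 and 31.2 intensity units. All 9 T-lineage markers, among them CD3D and LCK, were above the dim level of 4.88 (the log2 of the median deposited value) in all 8 groups. Of the 10 measured markers of other cell types, MS4A1, CD14, LYZ and COL1A2 were below that level in every group. CSF1R, HBB, KRT8, COL1A1 and CD79A were above it in every group, with CD79A at group means of 7.48 to 10.86. EPCAM was above it in 2 groups. Every value below is a log2 intensity of a probe set, or a difference of such values as PD-0332991 minus DMSO, and levels of different probe sets are not set against each other. The labels do not say whether the 2 arrays of a group came from separate cultures, so the spread between them may be technical, and their number limits the precision.

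The upstream sequences of the genes are shown for the 2 largest falls, for HAUS7 and HAUS1, whose windows hold the same word at different distances from the start, and for HAUS6, which holds none. Each RefSeq window (build GRCh38.p14) runs from 250 bases before the annotated start to 50 bases after it, 5′ to 3′ on the gene's strand, and capitals mark matches to a motif bound by E2F factors. The words searched on both strands were TTCCCGC, also TTCGCGC, also TTGCCGC, also TTGGCGC.
HAUS8 at chr19:17075403-17075702, minus strand: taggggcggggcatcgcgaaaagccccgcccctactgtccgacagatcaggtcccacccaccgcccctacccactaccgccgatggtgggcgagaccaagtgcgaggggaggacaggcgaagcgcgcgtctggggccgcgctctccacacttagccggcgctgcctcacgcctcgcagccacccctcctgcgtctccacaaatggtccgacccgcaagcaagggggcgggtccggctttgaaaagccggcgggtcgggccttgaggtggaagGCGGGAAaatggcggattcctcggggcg
HAUS2 at chr15:42548588-42548887, plus strand: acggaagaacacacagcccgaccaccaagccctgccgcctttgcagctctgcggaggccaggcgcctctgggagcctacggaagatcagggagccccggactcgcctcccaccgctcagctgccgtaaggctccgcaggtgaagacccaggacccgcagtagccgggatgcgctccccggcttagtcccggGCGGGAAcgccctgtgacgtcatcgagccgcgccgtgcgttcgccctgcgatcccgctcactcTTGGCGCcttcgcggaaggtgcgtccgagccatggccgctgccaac
HAUS7 at chrX:153470527-153470826, minus strand: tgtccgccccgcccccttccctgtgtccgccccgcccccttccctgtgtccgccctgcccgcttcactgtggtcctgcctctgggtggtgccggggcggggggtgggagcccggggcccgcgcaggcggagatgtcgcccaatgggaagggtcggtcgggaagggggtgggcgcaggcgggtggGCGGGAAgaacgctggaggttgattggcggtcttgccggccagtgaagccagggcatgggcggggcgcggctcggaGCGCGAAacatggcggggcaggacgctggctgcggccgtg
HAUS1 at chr18:46104135-46104434, plus strand: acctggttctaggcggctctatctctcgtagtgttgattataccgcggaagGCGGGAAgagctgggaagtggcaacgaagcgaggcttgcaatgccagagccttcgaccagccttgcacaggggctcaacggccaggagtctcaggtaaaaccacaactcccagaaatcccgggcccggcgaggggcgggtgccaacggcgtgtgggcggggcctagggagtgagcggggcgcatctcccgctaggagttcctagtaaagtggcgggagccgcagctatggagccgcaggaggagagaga
HAUS6 at chr9:19102855-19103154, minus strand: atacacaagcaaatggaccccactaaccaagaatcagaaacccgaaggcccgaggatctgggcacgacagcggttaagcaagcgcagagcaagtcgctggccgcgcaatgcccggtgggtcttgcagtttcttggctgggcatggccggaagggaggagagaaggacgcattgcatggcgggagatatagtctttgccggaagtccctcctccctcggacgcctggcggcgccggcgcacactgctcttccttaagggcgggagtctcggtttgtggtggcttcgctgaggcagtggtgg

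E2F factors are the transcription factors that the retinoblastoma protein restrains, and CDK4 and CDK6 act on that protein. Of the 10 windows listed for the 8 HAUS genes, 7 held an E2F word, against 13.0% of all 35116 windows in the table. By gene these were HAUS1, HAUS2, HAUS4, HAUS5, HAUS7 and HAUS8, 6 of 8, and no match was found in the windows of HAUS3 and HAUS6. The 13.0% is a share of windows, and no share by gene over all genes stands beside the 6 of 8. On average over the lines HAUS3 and HAUS6 fell by 0.64 and 0.56 on the log2 scale. The measured genes with a match fell by 0.62 for HAUS1 to 1.58 for HAUS8. Whether a match goes with the size of a fall was not tested. The HAUS8 match began 23 bases after the start in 1 of its 2 windows, and the HAUS2 matches began 59 bases before and 5 bases after the start. In HAUS7 the window shown held matches 66 bases before and 11 bases after the start, and in HAUS1 the match lay 199 bases before it. The cell-cycle homology region, searched as TTTGAA and also as TTCGAA, was found in 1 of the 10 windows, that of HAUS8, 14 bases before the start (16.4% of all windows). The CCAAT box (CCAAT) was found in both windows of HAUS7 and in no other (34.6% of all windows). No E2F match overlapped a match to either of the other motifs. The match is one of letters only, and base composition of the windows was not taken into account.

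On average over the lines all 7 measured HAUS genes were called lower with PD-0332991 (20.0% of all tested genes), and 6 of them were called lower in each of the 4 lines (5.65%), HAUS6 in CEM being the exception. In every line and for every gene, each of the 2 PD-0332991 arrays lay below each of the 2 DMSO arrays on the probe set used, 28 of 28 comparisons, and 10.7% of all tested genes showed this in all 4 lines. On average over the lines the falls ran from 0.56 for HAUS6 to 1.58 for HAUS8 on the log2 scale, with a median of -0.65, against a median of 0.04 over all tested genes. In the limma fit across all genes with Benjamini-Hochberg adjustment, 7 of 7 were called lower at an adjusted p under 0.05, against 20.0% of the 13483 genes tested. In bulk RNA, fewer cells in the stages that use a transcript and less of it per cell cannot be told apart.

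**Figure D1:**
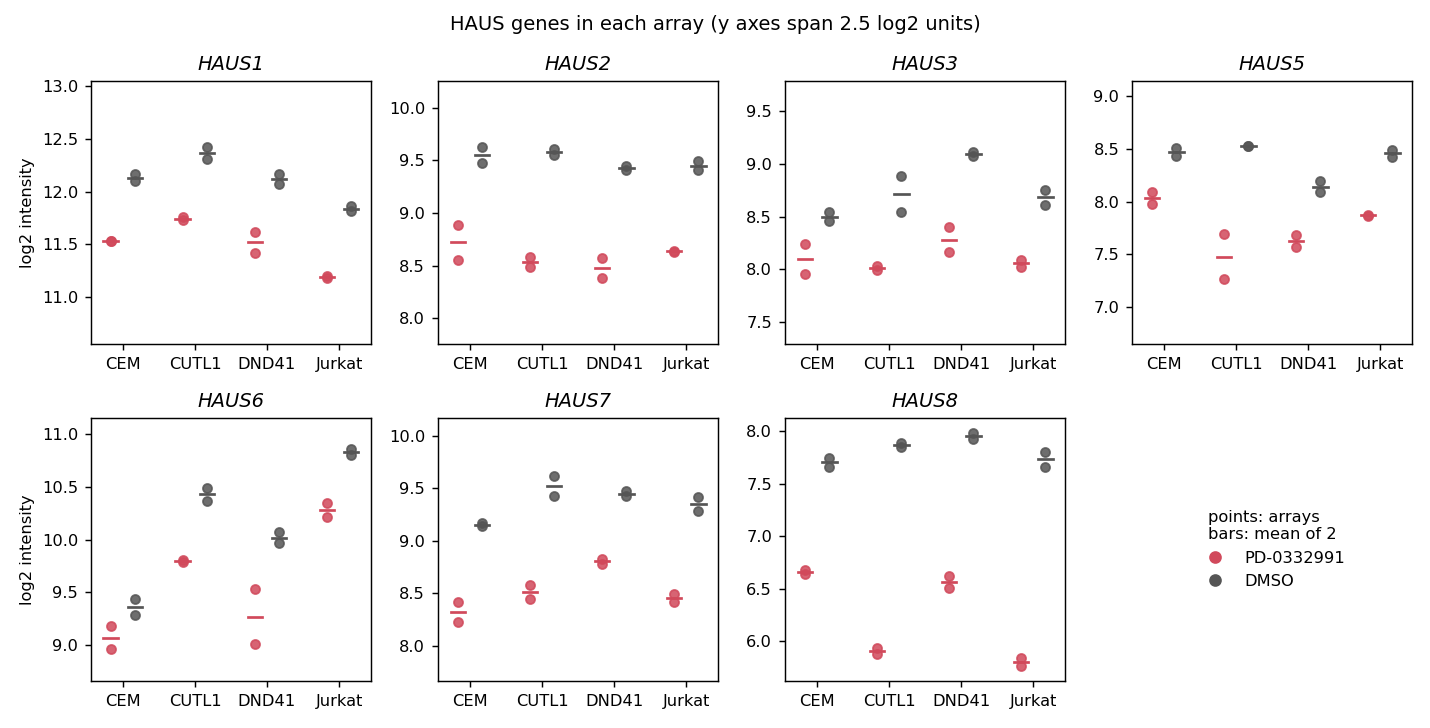
Log2 intensity (y axis) of the probe set used for each HAUS gene in each line (x axis), with PD-0332991 left of DMSO. Points are arrays and bars are means of 2. The PD-0332991 arrays lie below the DMSO arrays in every panel and line, with the widest gap for HAUS8 in CUTL1 and Jurkat and the narrowest for HAUS6 in CEM.

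HAUS8, the microtubule-binding subunit, fell furthest, by 1.58 (SE 0.04), or 2.98-fold, on average (n = 8 arrays per treatment, from 4 lines). Every SE given comes from the spread within the groups of 2 arrays. The SE of an average change therefore leaves out the differences between lines. In CEM it read 6.64 and 6.68 with PD-0332991, against 7.74 and 7.66 with DMSO. In CUTL1 it read 5.93 and 5.88 with PD-0332991, against 7.84 and 7.89 with DMSO. The 2 treatments were thus far apart in both lines, and PD-0332991 arrays of CUTL1 were lower than those of CEM although their DMSO arrays were slightly higher. In DND41 the readings were 6.51 and 6.62 with PD-0332991, against 7.98 and 7.92 with DMSO. In Jurkat they were 5.84 and 5.77 with PD-0332991, against 7.80 and 7.66 with DMSO. The DMSO arrays of the 4 lines lay within 7.66 to 7.98, whereas the PD-0332991 arrays formed a higher set in CEM and DND41 and a lower set in CUTL1 and Jurkat. The changes were -1.04 in CEM, -1.96 in CUTL1, -1.39 in DND41 and -1.92 in Jurkat (SE 0.07 each). Of all tested genes 0.638% had a lower average change than HAUS8.

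HAUS2, a coiled-coil subunit first described as a centrosomal protein, fell by 0.91 (SE 0.05) and HAUS7, first described as a partner of the deubiquitinase UCHL5, fell by 0.84 (SE 0.04) on average. HAUS2 ranged over 8.38 to 8.88 in the 8 PD-0332991 arrays, against 9.41 to 9.62 in the 8 DMSO arrays. These ranges did not overlap even with the lines pooled. HAUS7 ranged over 8.23 to 8.83 with PD-0332991, against 9.14 to 9.61 with DMSO, again without overlap. The HAUS7 change was smallest in DND41 (-0.64, SE 0.09) and largest in CUTL1 (-1.01), and that of HAUS2 lay between -0.81 in Jurkat and -1.04 in CUTL1.

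HAUS6, the subunit that recruits the gamma-tubulin ring complex, had the smallest fall, 0.56 (SE 0.07), or 1.47-fold. In CEM it read 9.18 and 8.96 with PD-0332991, against 9.44 and 9.29 with DMSO. In DND41 it read 9.01 and 9.53 with PD-0332991, against 10.07 and 9.96 with DMSO. The CEM arrays of the 2 treatments nearly met, and the 2 PD-0332991 arrays of DND41 stood further apart than any other replicate pair of the probe sets used. In CUTL1 HAUS6 read 9.81 and 9.79 with PD-0332991, against 10.50 and 10.37 with DMSO. In Jurkat it read 10.22 and 10.34 with PD-0332991, against 10.80 and 10.86 with DMSO. The change was -0.29 (SE 0.14) in CEM, -0.63 in CUTL1, -0.75 in DND41 and -0.55 in Jurkat.

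Among the subunits of the other part of the complex, HAUS1 changed by nearly the same amount in each line, between -0.60 in CEM and -0.65 in Jurkat (SE 0.08 each). It read 11.18 to 11.76 with PD-0332991, against 11.81 to 12.43 with DMSO. HAUS3 fell by 0.64 (SE 0.06) on average, and its change was smallest in CEM (-0.40) and largest in DND41 (-0.82). It read 7.96 to 8.40 with PD-0332991, against 8.46 to 9.12 with DMSO. HAUS5 fell by 0.65 (SE 0.06) on average, with -1.05 in CUTL1 and values of -0.44 in CEM, -0.51 in DND41 and -0.59 in Jurkat. Its pattern over the lines depended on the probe set. On 213054_at the change was -0.32 in CEM, -1.24 in CUTL1, -1.23 in DND41 and -0.83 in Jurkat. On 213053_at it was -0.47 in CEM, -0.89 in CUTL1, -0.66 in DND41 and -0.84 in Jurkat. In CUTL1 HAUS5 read 7.26 and 7.70 with PD-0332991, against 8.53 and 8.53 with DMSO. The PD-0332991 readings were far apart and both below every DMSO reading of that line.

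**Figure D2:**
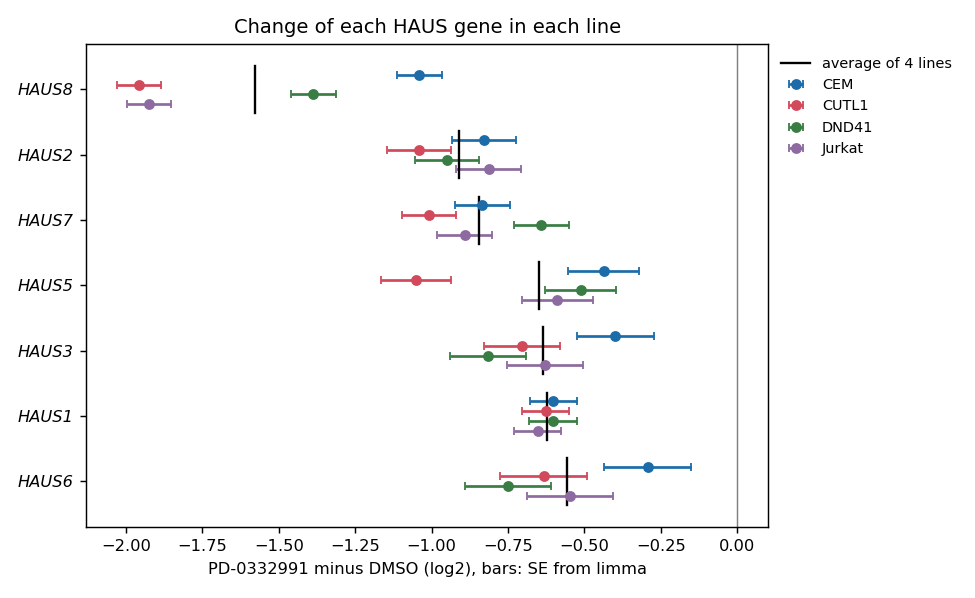
Change with PD-0332991 (x axis, PD-0332991 minus DMSO, log2) of each HAUS gene (y axis) in each line, with SE from limma as bars and the average as a black line. HAUS8 lies between -1.04 and -1.96, and HAUS1 between -0.60 and -0.65.

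Taken line by line, 6 of 7 HAUS genes were called lower in CEM (11.6% of all tested genes), 7 of 7 in CUTL1 (12.7%), 7 of 7 in DND41 (17.1%) and 7 of 7 in Jurkat (11.4%). HAUS6 in CEM was the 1 comparison of 28 not called, so 6 of 7 genes were called lower in all 4 lines (5.65% of all tested genes). The median HAUS change was -0.60 in CEM, -1.01 in CUTL1, -0.75 in DND41 and -0.65 in Jurkat, and the median over all genes was between 0.01 and 0.05 in each line. Some of these calls were lost when 1 array was left out, in some cases with a larger fall than in the full set. Such a fit has only 1 array left in that group and is less precise. In CEM the HAUS3 call was lost without DMSO replicate 1, DMSO replicate 2 or PD-0332991 replicate 2 (-0.36, -0.44 and -0.26), and the HAUS5 call without DMSO replicate 1 or PD-0332991 replicate 1 (-0.40 and -0.38). The HAUS6 change in CEM, at -0.29, was called when either PD-0332991 array of DND41 was left out. In DND41 the HAUS5 call was lost without DMSO replicate 1 or PD-0332991 replicate 1 (-0.46 and -0.45), and in Jurkat the HAUS6 call without DMSO replicate 1, DMSO replicate 2 or PD-0332991 replicate 1 (-0.58, -0.52 and -0.48). The direction was downward in all 968 values of a HAUS gene's change under the other settings tried. Many of these settings could not reverse it. With both PD-0332991 arrays below both DMSO arrays in 28 of 28 comparisons, leaving out 1 array cannot turn a fall into a rise. The 968 values are thus no separate support for the direction.

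The 18S ribosomal RNA probe sets read lower with PD-0332991 in 2 lines. Their mean was 12.45 and 12.75 with PD-0332991, against 13.21 and 13.26 with DMSO, in DND41, and 12.80 and 12.67 with PD-0332991, against 13.28 and 13.17 with DMSO, in CUTL1. In CEM and Jurkat the 18S readings of the treatments overlapped. The part of this measure in the HAUS changes was not tested.

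The change differed between lines for 1 of the 7 genes, HAUS8, by limma's F test for a difference of the PD-0332991 effect between lines, and 12.6% of all tested genes were called by that test. Its 4 changes spanned 0.92 on the log2 scale. HAUS5 spanned 0.61, HAUS6 0.46, HAUS3 0.42, HAUS7 0.37, HAUS2 0.23 and HAUS1 0.05, none of them called. HAUS8 was called under all 25 other settings in which this test was run. Left-out arrays brought in a second gene, HAUS5 without PD-0332991 replicate 2 of CUTL1 and HAUS6 without PD-0332991 replicate 2 of DND41, so that 2 genes were called in each case.

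Where a gene had several probe sets, most of them fell together. Fitted over the 24893 probe sets that passed the dim level, 13 of 14 HAUS probe sets were called lower on average (19.2% of all), and in 12 of 14 both PD-0332991 arrays lay below both DMSO arrays in all 4 lines (9.72% of all). By line, 9 of 14 were called lower in CEM (9.13% of all), 12 in CUTL1 (11.3%), 13 in DND41 (16.5%) and 10 in Jurkat (9.58%). The 3 HAUS5 probe sets changed by -0.65, -0.72 and -0.90, and the 3 HAUS6 probe sets by -0.56, -0.65 and -0.73. For HAUS2 the probe sets 229181_s_at, 228744_at and 229208_at changed by -0.91, -0.89 and -0.58. The fourth, 220071_x_at, stood at -0.06 (SE 0.11) and was not called. Its readings were 9.44 and 8.85 with PD-0332991, against 8.85 and 9.14 with DMSO, in DND41, where the groups overlapped. The suffix _x_at marks probes that may bind other transcripts as well, and the HAUS7 value also rests on 1 probe set of that kind. HAUS1, HAUS3 and HAUS8 rest on 1 probe set each.

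**Figure D3:**
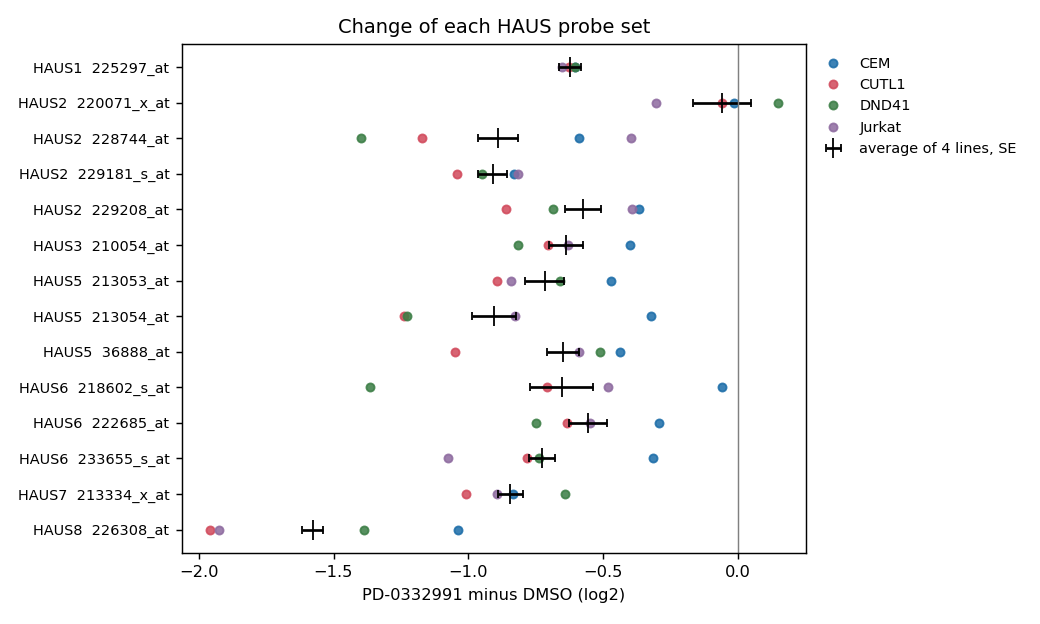
Change with PD-0332991 (x axis, log2) of each of the 14 HAUS probe sets (y axis), with coloured points for the lines and a black mark with SE for their average. Of these, 13 averages lie at -0.56 or lower, and 220071_x_at of HAUS2 lies at -0.06.

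Other disagreements lay within single lines. In Jurkat the HAUS2 probe sets 228744_at and 229208_at changed by -0.40 and -0.39 and were not called, against -0.81 for 229181_s_at. In CEM neither 229208_at of HAUS2 (-0.37) nor 213054_at of HAUS5 (-0.32) was called. In Jurkat the HAUS6 probe set 233655_s_at changed by -1.08, against -0.55 for 222685_at. The third, 218602_s_at, was not called in CUTL1 (-0.71) or Jurkat (-0.48). HAUS6 also differed between probe sets in CEM. Its probe set 218602_s_at read 7.03 and 6.53 with PD-0332991, against 6.70 and 6.98 with DMSO, so the groups overlapped. The probe set 233655_s_at read 6.32 and 6.30 with PD-0332991, against 6.67 and 6.57 with DMSO, and was called lower in CEM over all probe sets. In DND41 the same 218602_s_at changed by -1.37, against -0.75 and -0.74 for the other 2. Whether HAUS6 was read as lower in CEM, and by how much in DND41, thus depended on the probe set.

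The genes that act with augmin were described from lists made for this purpose. Of 13 genes of the gamma-tubulin complex and its adaptors 11 were tested, and on average 7 fell, 1 rose and 3 did not pass the test. Their median was -0.43 (20.0% of all tested genes fell and 26.7% rose). The largest fall was in TUBG1, which encodes gamma-tubulin, at -0.99 (SE 0.03), and the adaptor gene NEDD1 fell by 0.43 (SE 0.04). The rise was in TUBGCP6, a ring complex subunit, at 0.24 (SE 0.08), a call lost under 19 of 30 other settings, among them without DND41 (0.13). MZT2A and NME7 had no probe set with 1 symbol.

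Of 19 spindle assembly partners 16 fell, 1 rose and 2 did not pass the test. Their median was also -0.43. TACC3, a spindle protein that works with clathrin, fell most, by 1.22 (SE 0.05). TPX2, which activates Aurora A at the spindle, fell by 0.73, the kinase gene AURKA by 0.50 and the mitotic kinase gene PLK1 by 0.40. CLTC, the clathrin heavy chain gene, rose by 0.14 (SE 0.05), a call lost under 8 of 31 other settings, among them without DND41 (0.05) and without CUTL1 (0.15). With each line's mean difference as 1 replicate, 10 of the 19 were called.

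By line, the median of the spindle partners was -0.27 in CEM, -0.64 in CUTL1, -0.33 in DND41 and -0.63 in Jurkat, and that of the gamma-tubulin genes -0.25, -0.49, -0.57 and -0.39 in the same order. Of the spindle partners 9 of 19 were called lower in CEM (11.6% of all tested genes) and 16 of 19 in Jurkat (11.4%). PLK1 changed by -0.04 in CEM and -0.79 in Jurkat, and AURKA by -0.08 and -0.91. Other partners fell in CEM as well, with TUBG1 at -0.97 in CEM and -1.01 in Jurkat, and TACC3 at -0.99 and -1.71. HAUS8 in the same lines changed by -1.04 and -1.92, and HAUS1 by -0.60 and -0.65. These comparisons use the same arrays, so the values are set side by side only.

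**Figure D4:**
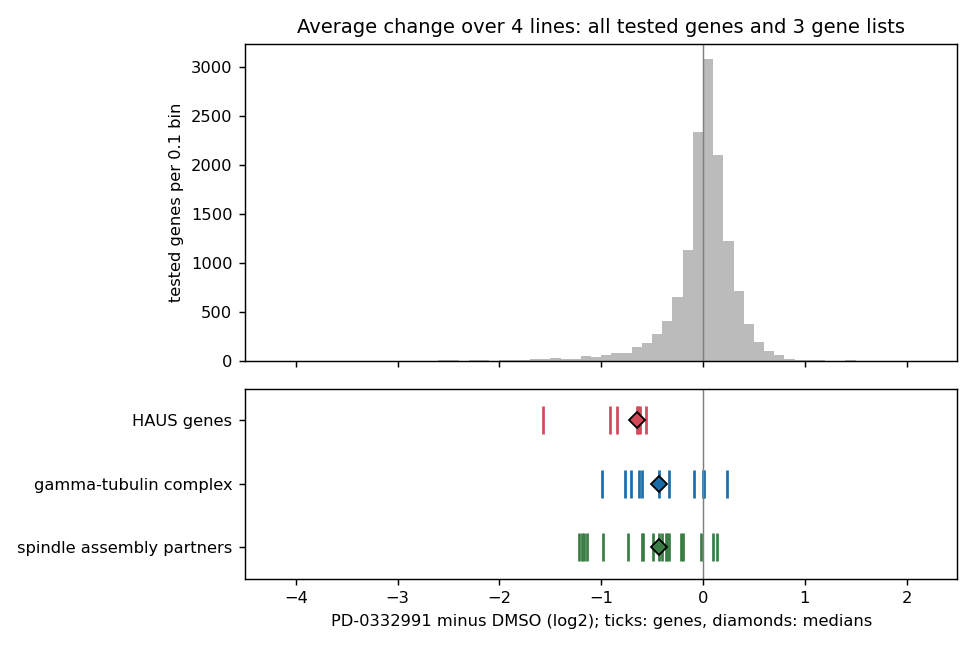
The upper panel counts the 13483 tested genes by average change with PD-0332991 (x axis, log2, bins of 0.1), and the lower panel marks each HAUS gene and the genes of both partner lists, with diamonds at the medians. The HAUS genes lie between -1.58 and -0.56, and both partner lists reach above 0.

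Most HAUS transcripts differed between lines in DMSO, as did most tested genes. The contrasts compare DMSO arrays, in the fit over all 16 arrays, from which they take their estimate of the spread. By limma's F test over the 4 DMSO groups 6 of 7 HAUS genes were called, and 71.2% of all tested genes were. This count does not set the HAUS genes apart from the rest. Fitted on the 8 DMSO arrays alone, 5 of 7 were called, without HAUS8, and 9127 of all 13483 tested genes were. HAUS1, HAUS3 and HAUS6 were called under all 26 other settings tried for this test. HAUS5 was called under 16, HAUS8 under 19 of them and HAUS7 under 23 of the 25 that measured it. With no dim filter the HAUS genes called numbered 4 of 7, and 9876 of all 19775 genes were called. The HAUS count was also lower in some fits without 1 array, among them those without a DMSO array of CEM or DND41. Such fits have 1 array left in that group.

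HAUS6 had the widest span among the 7 genes, with 9.36 ± 0.11 in CEM, 10.43 ± 0.09 in CUTL1, 10.02 ± 0.07 in DND41 and 10.83 ± 0.04 in Jurkat (SD, n = 2 each). The difference of CEM minus Jurkat was -1.47 (SE 0.14), or 2.76-fold. CEM minus CUTL1 was -1.07 and CEM minus DND41 -0.65, and these 3 differences with CEM were called under all 26 other settings. DND41 minus Jurkat, at -0.81, was also called under all of them. In the rising order of CEM, DND41, CUTL1 and Jurkat, CUTL1 differed from DND41 by 0.42 and from Jurkat by -0.40, each call lost under 6 of 26 settings. All 3 HAUS6 probe sets had their lowest DMSO level in CEM. Of these, 218602_s_at averaged 6.84 in CEM, against 8.59 in CUTL1, 8.42 in DND41 and 8.63 in Jurkat. The third, 233655_s_at, averaged 6.62 in CEM, against 7.70 in CUTL1, 7.65 in DND41 and 8.37 in Jurkat.

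HAUS1 averaged 12.37 in CUTL1, against 11.84 in Jurkat, a 1.44-fold difference (0.53 on the log2 scale, SE 0.08) that was called under all 26 settings. CEM at 12.13 and DND41 at 12.12 lay between them and were not called against each other. HAUS3 averaged 8.50 in CEM, against 9.10 in DND41, a 1.51-fold difference (-0.60 on the log2 scale, SE 0.12) that was called under all 26. CUTL1 at 8.72 and Jurkat at 8.68 lay between them and were not called against each other. In all, 21 of 42 differences between lines were called, 6 of them under every other setting, and all 6 are given here. By pair of lines, the HAUS genes called numbered 3 of 7 for CEM and CUTL1 (43.4% of all tested genes), 5 for CEM and DND41 (45.7%) and 2 for CEM and Jurkat (48.1%). They numbered 4 for CUTL1 and DND41 (44.1%), 2 for CUTL1 and Jurkat (49.5%) and 5 for DND41 and Jurkat (46.9%).

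The remaining members spread less. HAUS5 was lowest in DND41 (8.14, against 8.46 to 8.53 in the other lines), HAUS7 lowest in CEM (9.15, against 9.35 to 9.52), and HAUS8 stayed within 7.70 to 7.95. The HAUS2 probe set used, 229181_s_at, averaged 9.43 to 9.58 and was not called. Over all probe sets 11 of 14 HAUS probe sets were called for a difference between lines in DMSO (67.6% of all), among them other probe sets of HAUS2. The probe set 228744_at averaged 8.18 in CEM, 8.58 in CUTL1, 8.05 in DND41 and 7.55 in Jurkat. The same order held for 229208_at, with 7.13 in CEM, 7.28 in CUTL1, 6.87 in DND41 and 6.57 in Jurkat.

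**Figure D5:**
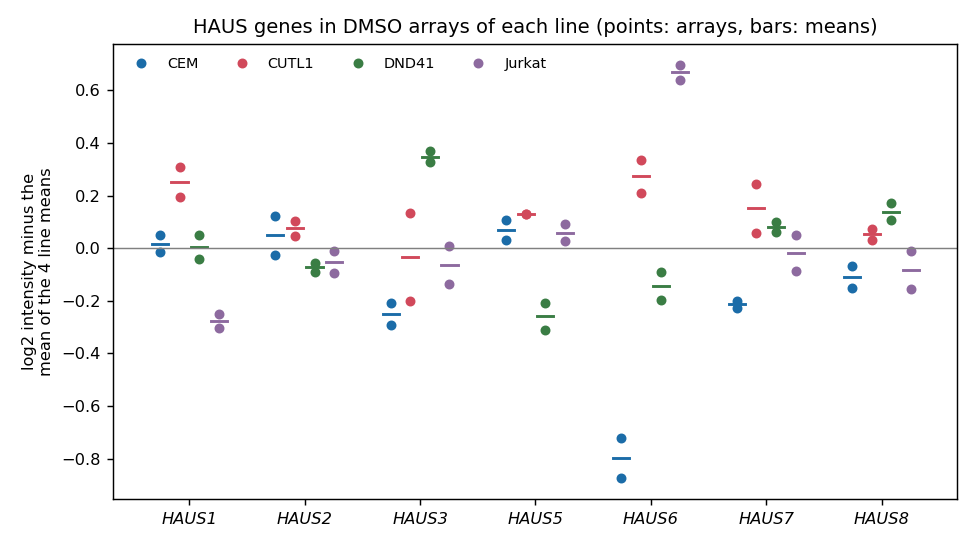
Log2 intensity in DMSO arrays of each line, as the distance from the mean of the 4 line means (y axis), for each HAUS gene (x axis). Points are arrays and bars are means of 2. HAUS6 spans 1.47 between CEM and Jurkat, and the other genes span 0.60 or less.

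Over the 16 arrays the members' levels were correlated pairwise at a median Pearson r of 0.824 (21 pairs, from 0.224 for HAUS1 with HAUS6 to 0.919). The arrays share 4 lines and 2 treatments, so r describes this set and no p is given. All 6 pairs that include HAUS6 were below the other 15. The genes most like the mean standardised profile of the 7 members were EZH2, a histone methyltransferase gene (r = 0.980), the checkpoint kinase gene CHEK1 (0.979), the deubiquitinase gene USP37 (0.979), the kinetochore gene ZWINT (0.979) and SLBP, which binds histone mRNA (0.976). HAUS8 was nearest to the meiotic recombination gene MND1 (0.993) and the replication and repair genes MCM10 (0.991) and EXO1 (0.990). HAUS2 was nearest to CHEK1 (0.978), CASP8AP2 (0.974) and WDR76 (0.974). HAUS7 was nearest to SAE1, which encodes part of the SUMO-activating enzyme (0.975), MCMBP (0.960) and SLBP (0.960). HAUS1 was nearest to SLC20A1-DT (0.975), the clamp loader gene RFC1 (0.975) and the translesion polymerase gene REV1 (0.971). HAUS3 was nearest to FAM76B (0.968), the anaphase-promoting complex gene CDC23 (0.952) and ZGRF1 (0.946). HAUS5 was nearest to DYNC2I2 (0.961), the centriole gene CEP152 (0.938) and the mitochondrial carrier gene SLC25A10 (0.937). HAUS6 was nearest to SEPTIN8 (0.952), MFSD2A (0.948) and the RNA polymerase II subunit gene POLR2C (0.936). No gene was shared between the nearest genes of different members.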

How the data were processed

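Per the labels' protocols, total RNA (Qiagen RNeasy Plus) was amplified from 5 ng with the Nugen Ovation V2 system and hybridised as biotin-labelled cDNA. The authors deposited 1 linear intensity for each probe set and array, made with RMA per the submitters' processing notes, its version not given in the sources used here. They run from 4.42 to 26097, so log2 was taken, with no pseudocount or further scaling. Gene names came from the platform annotation, with 41097 of 54675 probe sets carrying 1 symbol, 1801 several and 11777 unnamed here. Each gene was read by its probe set with the highest mean, and tested where its mean log2 value in at least 1 line reached 4.88, which kept 13483 of 19775 genes.

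The 8 groups each had a mean in 1 limma model (version 3.58.1, R 4.3.3) with moderated variances (residual degrees of freedom 8, prior 3.32), two-sided, with Benjamini-Hochberg adjustment over all genes tested and a threshold of 0.05. The fit was tested on simulated data. Alternatives changed the scaling, dim filter, probe set choice, variance model, samples, replicate block and single arrays. The members and lists were chosen with earlier results of these data known. Named were all members, the largest fall and rise of each partner list, and the genes nearest in profile. NEDD1, TPX2, AURKA and PLK1 were picked from the lists as known partners, also with results known. Promoters are from RefSeq, GRCh38.p14. Figures used Python 3.11.15, pandas 2.3.3 and matplotlib 3.10.9.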

Additional observations from a re-analysis of the deposited data

Results flagged for a closer look

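The change of HAUS8 with PD-0332991 differed between lines in limma's F test, with a range of 0.92 on the log2 scale, from -1.04 in CEM to -1.96 in CUTL1. The same test called 13 of the 30 partner genes tested, against 12.6% of all tested genes. The ranges of their 4 line changes were 1.34 for TUBGCP5 and 0.49 for TUBG1 among the gamma-tubulin genes. Among the spindle partners they were 1.23 for KIF11, 1.08 for TPX2, 1.06 for PRC1, 1.01 for KIFC1, 0.96 for DLGAP5, 0.91 for TACC3, 0.83 for KIF4A, 0.82 for AURKA, 0.75 for PLK1, 0.64 for CEP192 and 0.57 for HMMR. TUBGCP5 changed by -0.05 in CEM and -1.39 in DND41, and TUBG1 by -1.24 in CUTL1 and -0.75 in DND41. KIF11 changed by -0.48 in CEM and -1.71 in Jurkat, and TPX2 by -0.21 in DND41 and -1.29 in Jurkat.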

How the results depend on the processing

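Of 121 counts recomputed under settings other than 1 array left out, 115 stayed within 1.5 times of the value reported. The number of HAUS genes whose change differed between lines was 2 in place of 1 with the dim filter at the 75th percentile, with all probe sets averaged, without probe sets ending in _x_at or _s_at, and with a trended and robust variance. The spindle partners called numbered 10 in place of 17 with each line as 1 replicate. They also numbered 10 without probe sets ending in _x_at or _s_at. There several partners, among them AURKA, PLK1 and TPX2, were not measured, so fewer genes were counted. CDK5RAP2, a gamma-tubulin adaptor gene, stood at 0.0035 in place of -0.71 without such probe sets. The HAUS2 difference of DND41 minus Jurkat in DMSO, at -0.02, was 0.30 with probe sets averaged and 0.49 without such probe sets, where another probe set stood for the gene. HAUS7 could not be fitted without _x_at probe sets. HAUS2 in Jurkat (-0.40) was not called without such probe sets, nor HAUS3 in CEM with arrays centred on their medians (-0.37), with no dim filter (-0.40) or from the line's own 4 arrays (-0.40), nor HAUS6 in DND41 (-0.75) from its own 4 arrays.

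With 1 array left out at a time, HAUS genes called numbered 7 in each case for the average and for CUTL1, 4 to 7 in CEM, 6 to 7 in DND41 and 6 to 7 in Jurkat. They numbered 1 to 2 for the difference between lines and 4 to 6 in DMSO. HAUS probe sets called numbered 13 in each case, gamma-tubulin genes 7 to 8 and spindle partners 16 to 18. Same-numbered arrays of the 2 treatments of a line had deviations from the group means that correlated at r of -0.108 to 0.195. These values cannot show whether a shared number marks a shared culture or batch, and the labels do not say. With the replicate number as a block, the calls of HAUS genes on average remained 7, and in CEM 6. With a replicate block within each line, they were again 7 and 6, and the gamma-tubulin count was 7 in place of 8. Over all genes the average effect called 2546 in place of 6288 with each line as 1 replicate, DND41 1849 in place of 3800 from its own 4 arrays, and the difference between lines 2562 in place of 1700 with a trended and robust variance. Without 1 array they fell as low as 2370 of 3786 in CEM, 2447 of 3673 in CUTL1, 2146 of 3800 in DND41, 2150 of 3645 in Jurkat and 791 of 1700 for the difference between lines.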
